A study of Saccharomyces cerevisiae with 18 samples.

Results

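Binding of the K146D form of Ste12 was set against binding of wild-type (WT) Ste12 over all 2188 peaks of a calling-card experiment in budding yeast. In calling cards a transcription factor is fused to a transposase, here PiggyBac, which inserts a marked transposon near the place where the factor is bound. Each transposon carried a random tag, the unique molecular identifier (UMI), so a peak's value is the number of distinct tags inserted there. A genotype's sites were the peaks that reached 3 UMIs in each of its 2 libraries. K146D had 347 sites and WT had 275, and together they covered 570 of the 2188 peaks. Of these, 52 were kept (a site of both), 223 were lost (of WT alone) and 295 were gained (of K146D alone), and 1618 peaks were a site of neither.

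K146D has aspartate in place of a lysine in the DNA-binding domain of Ste12. Both fusions, K146D and WT, were made from the galactose-induced GAL1 promoter on a plasmid in BY4705 MATα cells, with 2 libraries each, and these cells kept their own unmutated STE12 gene. RNA-seq came from other cells of the same background, in which the chromosomal STE12 was deleted and K146D or WT STE12 was expressed from its own promoter on a centromeric plasmid, in exponential growth with 5 libraries each. Binding and expression therefore come from different strains, with a different source and amount of Ste12. The other 5 variants, K150A, K150I, K152L, S158H and A160P, were measured in the same way, and libraries of the transposase alone were not analysed here.

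Ste12 is the transcription factor at the end of the yeast pheromone pathway. Pheromone binding to its receptor frees a G protein, a MAP kinase cascade is activated, and its kinases Fus3 and Kss1 relieve Ste12 from the repressors Dig1 and Dig2. Ste12 binds pheromone response elements by itself or beside Mcm1 to switch on mating genes, and beside Tec1 it acts on genes of filamentous growth.

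The K146D libraries held 8399 and 8997 UMIs in peaks, against 12778 and 6165 in the WT libraries, and 844 and 997 peaks had at least 1 UMI in K146D, against 1168 and 393 in WT. The second WT library was thus the shallowest of the 4 and had UMIs at the fewest peaks. Values are shares of a library, so a change in the total number of insertions per cell would not be seen. The paper reports far fewer colonies, its measure of transposition, for the mating-defective variants, K146D among them, than for WT. Higher or lower binding here therefore means a higher or lower share of a library's UMIs. The spread between replicates exceeded counting error: chi-square divided by its degrees of freedom was 1.88 over 274 peaks for K146D and 2.28 over 226 for WT. The labels do not say that replicates were separate cultures, so p-values measure only the spread between these libraries, which may be technical. In the RNA-seq, the summed level of 4 genes of MATα cells was 1652 to 2560 counts per 1000000 (CPM) in K146D and 2875 to 4037 CPM in WT. The sum of 6 genes of MATa cells was 27.2 to 109 CPM in K146D and 32.4 to 117 CPM in WT, and no marker of either list was at 0 throughout.

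Most K146D insertions fell at peaks that were not WT sites. Gained sites took 74.3% and 70.1% of the UMIs in the K146D libraries, against 3.43% and 0.341% in the WT libraries. Lost sites took 1.21% and 2.55% in K146D, against 58.2% and 70.6% in WT. Kept sites took 16.6% and 16.1% in K146D, against 23.6% and 26.7% in WT. No K146D library came near a WT library in the shares of gained or lost sites, a separation that the definition of these sites sets.

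**Figure D1:**
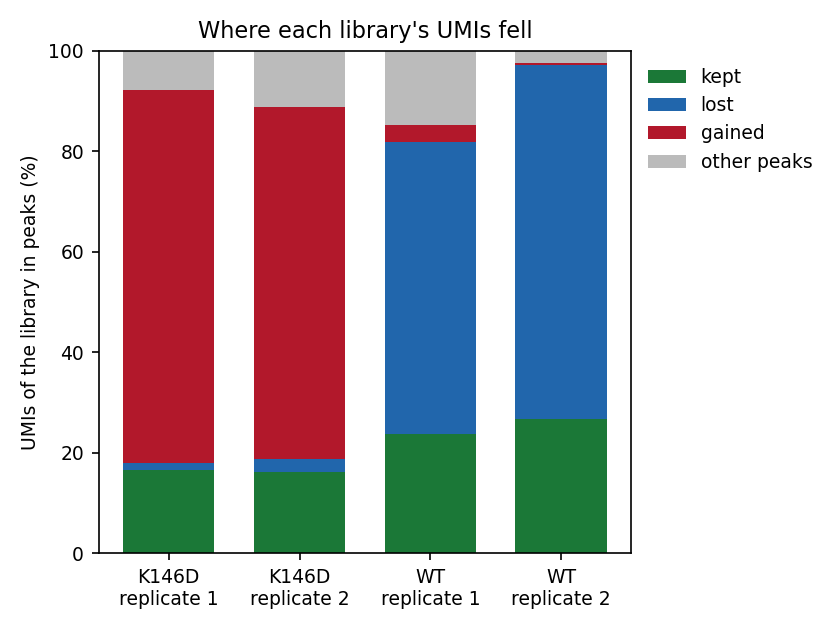
Share of each library's UMIs in peaks (vertical axis, %) at kept sites, lost sites, gained sites and other peaks, with 1 bar for each of the 2 K146D and 2 WT libraries. Gained sites make up 74.3% and 70.1% of the K146D bars, and lost sites 58.2% and 70.6% of the WT bars.

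Many of the sites of one genotype were bare in the other. Of the lost sites, 103 had 0 UMIs in both K146D libraries and 186 had at most 2 in each, while 6 reached 3 UMIs in the first K146D library and 31 in the second. Of the gained sites, 133 had 0 UMIs in both WT libraries, 275 had 0 in the shallower second WT library, and 59 reached 3 UMIs in the first. A count of 0 in both libraries allows up to 172 UMIs per 1000000 in K146D and 158.4 in WT, at 3 UMIs over the pair and for counting error only. Near the minimum, 93 peaks had 2 UMIs in the lower of the 2 K146D libraries, 55 had 3 and 47 had 4. For WT these numbers were 19, 30 and 17. The counts of sites depended on single libraries. Without the first K146D library 83 sites were kept, and without the second WT library 111 were kept and 448 lost.

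The kept share of K146D sites was higher in the middle bins of strength than in the weakest and the strongest. Among the 32 K146D sites with 100 or more UMIs over both libraries, 15.6% were kept and 16 sites had 0 UMIs in both WT libraries. Among the 178 with 6 to 19 UMIs, 7.87% were kept and 37.1% had 0 in WT. It was 19.1% among the 89 with 20 to 49 and 33.3% among the 48 with 50 to 99. Of the 48 WT sites with 100 or more UMIs, 29.2% were kept, against 13.6% of the 81 with 6 to 19. These shares are descriptions, as the UMIs define the sites.

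**Figure D2:**
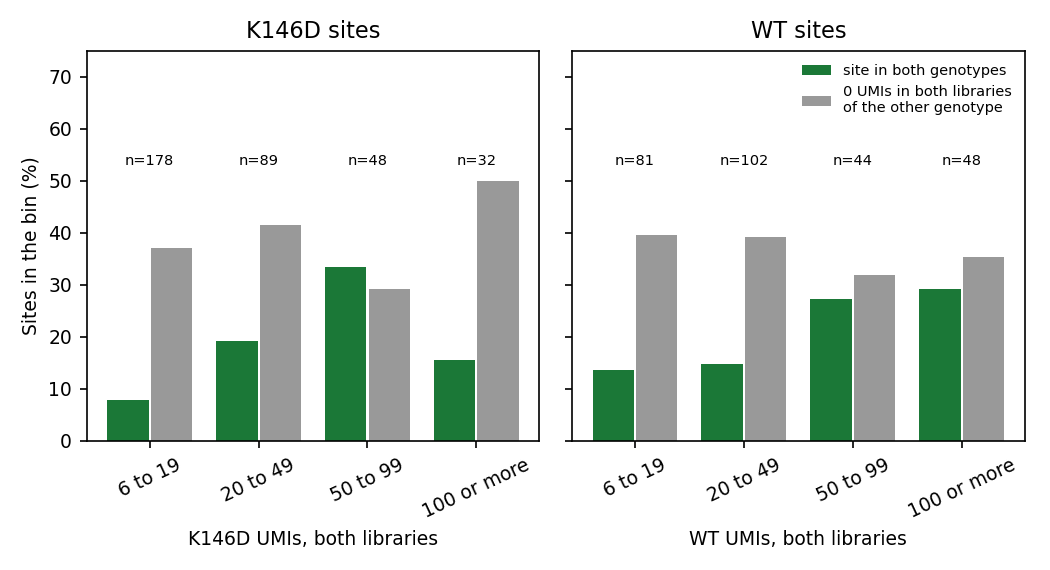
Share of sites (vertical axis, %) that were sites of both genotypes (green) or had 0 UMIs in both libraries of the other genotype (grey), by the UMIs at the site summed over the 2 libraries of its own genotype (horizontal axis), for K146D sites (left) and WT sites (right); n is the number of sites. In the strongest bin 15.6% of K146D sites and 29.2% of WT sites were in both.

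A test across 1129 peaks with limma called 236 peaks lower in K146D (20.9% of those tested) and 292 higher (25.9%). All 570 sites passed its filter because of the UMIs that made them sites, so the calls at lost sites (208 lower) and gained sites (261 higher) had to follow and are given as a description. Among the 52 kept sites, 13 were lower and 7 higher in K146D and 32 were not called, with a median log2 difference of −0.04 and a range from −4.19 to 2.65.

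**Figure D3:**
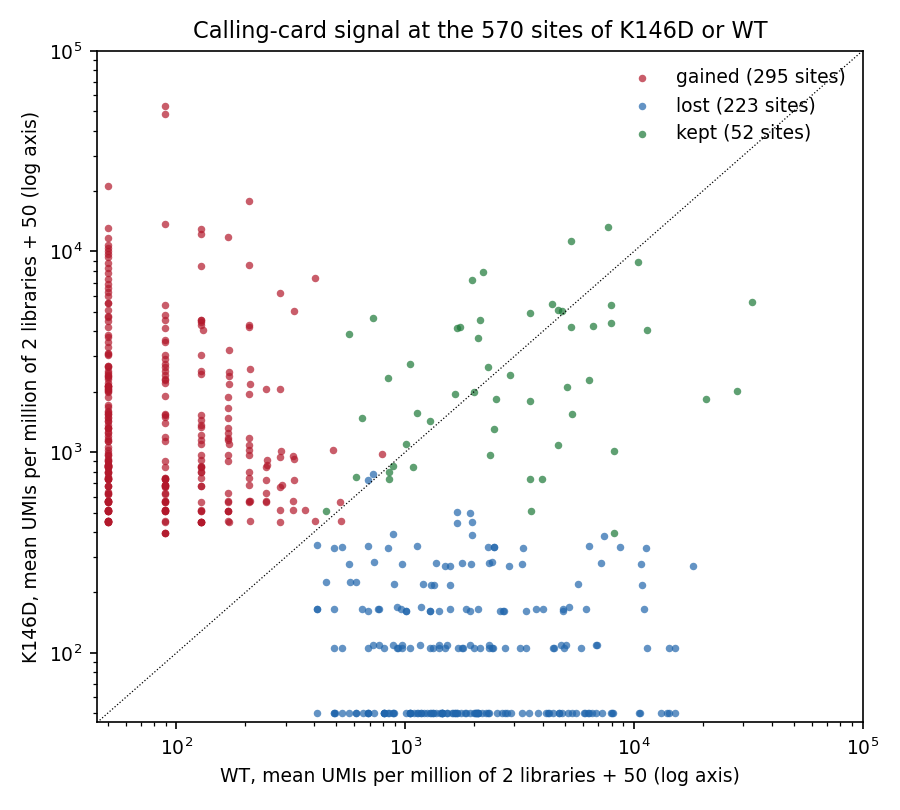
Mean UMIs per 1000000 of the 2 K146D libraries (vertical log axis) against that of the 2 WT libraries (horizontal log axis), each plus 50, for the 295 gained, 223 lost and 52 kept sites; the dotted line marks equal values. Kept sites lie on both sides of the line, with 27 of 52 below a difference of 0 in the test, while 133 gained sites stand at the left edge with 0 WT UMIs and 103 lost sites at the bottom edge with 0 K146D UMIs.

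Of the 10 kept sites with the most UMIs, 4 were called lower in K146D and 1, beside FIG1, higher. The FIG1 call was lost in edgeR, in DESeq2 and without the first library of either genotype (adjusted p up to 0.640). Of the lower calls, that of KAR4 (log2 difference −2.51) was lost with a pseudocount of 10 and without any 1 of the 4 libraries. That of CHS7 (−1.47) was lost with TMM scaling, without either K146D library and without the second WT library. On chromosome XVI (894156 to 894382), inside the coding span of HDA3, a histone deacetylase subunit, K146D had 19 and 15 UMIs, against 355 and 177 in WT (log2 difference −3.79 ± 0.40 SE, adjusted p = 4.77e-05). The site beside PUN1, a plasma membrane protein gene, and VPS36, of endosomal sorting, had 19 and 12 UMIs in K146D, against 269 and 124 in WT (chromosome XII, 954131 to 954253; −3.49 ± 0.76, adjusted p = 0.00413). Upstream of UBC4, a ubiquitin-conjugating enzyme gene, 116 and 114 UMIs in K146D stood against 105 and 44 in WT (0.78 ± 0.68, adjusted p = 0.432). On pooled UMIs the site at PUN1 and VPS36 was 11.6-fold lower in K146D (exact interval 8.07 to 17.4, for counting error only) and that in HDA3 14.4-fold lower (10.2 to 21.0).

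The largest fall among kept sites was at 3 and 3 UMIs in K146D, against 87 and 58 in WT, on chromosome VII from 701937 with no gene window, and K146D just met the minimum there. The largest rise was at the kept MSB2 site. Sites beside DBF2, a kinase of mitotic exit, RAX2, of bud site selection, and EXG1, a cell wall glucanase, were among the 7 called higher, with 35 and 28, 28 and 45, and 16 and 24 UMIs in K146D, against 23 and 14, 18 and 12, and 12 and 4 in WT. Sites beside BUD8, a bud site marker, the cyclin gene PCL2, and TGL5 and WHI5 were among the 13 called lower. The other kept sites with the most UMIs were beside KAR4, KAR5, FIG1, CHS7, STE12, WSC2 and SST2.

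The 10 peaks with the largest rise were all gained sites. The first of them lay on chromosome II (586281 to 586480, R64), 218 bp from the start of EHT1, an acyltransferase of fatty acid ester synthesis, where K146D had 438 and 489 UMIs, against 1 and 0 in WT. The peak on chromosome XV from 161348 to 161450, in the windows of the alcohol dehydrogenase gene ADH1 and of PHM7, had 452 and 384 UMIs in K146D, against 1 and 0 in WT. These were the 2 peaks with most UMIs in both K146D libraries, and together they held 10.6% and 9.70% of the UMIs there. The pooled ratio at EHT1 was 1009 with an exact 95% interval from 181 to 39913, which covers counting error only.

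A peak inside the coding span of PPH21, a catalytic subunit of protein phosphatase 2A, had 175 and 195 UMIs in K146D and 0 in both WT libraries (chromosome IV, 220334 to 220435; at least 134-fold higher). Another inside SLT2, the MAP kinase of cell wall integrity, had 89 and 138 UMIs in K146D and 0 in both WT libraries (chromosome VIII, 169525 to 169625). It lay in the window of YHI9 and was at least 82.4-fold higher by the same limit. Beside LSM6 and RGA2, the second of which encodes a GTPase-activating protein of Cdc42, K146D had 103 and 98 UMIs, against 0 in both WT libraries. The other 5 of the 10 largest rises were in the windows of CUP9, a transcriptional repressor, of COY1, and of NAG1 and the glucan synthase gene GSC2, inside the flocculin gene FLO9, and in a stretch of chromosome VIII (100588 to 100689) with no gene window. Their log2 differences ran from 6.57 to 6.74. All 10 kept their call when any 1 library was left out, which their choice as the largest rises among called peaks largely sets.

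The 10 peaks with the largest fall were all lost sites. In the windows of TIP20, a vesicle-tethering factor, and the ribosomal protein gene RPL9A (chromosome VII, 229312 to 229413, inside the coding span of RRT6), both K146D libraries had 0 UMIs, against 195 and 91 in WT, at least 87.5-fold lower. In the window of TDH1, a glyceraldehyde-3-phosphate dehydrogenase gene, and inside the small open reading frame YJL052C-A, both K146D libraries had 0 UMIs, against 191 and 82 in WT (chromosome X, 337833 to 337936). By the same limit this was at least 83.6-fold lower. RGI1 (0 and 0 in K146D, against 144 and 102 in WT), the amino acid permease gene AGP3 (0 and 0, against 120 and 73) and LRG1, a GTPase-activating protein of Rho1 (0 and 0, against 118 and 72) gave the same picture. The remaining 5 were a peak of chromosome XII with no gene window, and sites beside CBS1 and IDP1, beside SCW10, beside YAP1 and ERG6, and beside MET28, with log2 differences from −7.02 to −6.33.

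The other variants had UMIs at some of these sites and not at others. At 8 of the 10 largest falls and 4 of the 10 largest rises, the 10 libraries of the other 5 variants had no UMI, while at the EHT1 site they had 295 and at the chromosome XII site 90. Over all gained sites, 68 (23.1%) had UMIs in both K146D libraries and 0 in each of the other 12 libraries, and the largest of them held 370 UMIs. Over all lost sites, 52 (23.3%) had UMIs in both WT libraries and 0 in each of the other 12, and the largest held 273. Whether the replicates of a genotype share insertion events was not tested.

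Kept sites lay in gene windows more often, and inside coding spans less often, than lost and gained sites did, as shares given without a test. They also held more UMIs, with a median of 37.5 in K146D, against 16 at gained sites, and of 50 in WT, against 30 at lost sites. The window of a gene, taken as 1000 bp before its coding start and 200 bp after it, was overlapped by 82.7% of kept sites, against 71.7% of lost sites, 69.2% of gained sites and 62.4% of all peaks. Their midpoint was inside a coding span in 11.5%, against 26.9% of lost sites, 22.7% of gained sites and 36.4% of all peaks. The median distance to the nearest coding start was 348 bp for kept, 345 bp for lost and 380 bp for gained sites, and 447 bp for all peaks. Peaks wider than 110 bp made up 61.5% of kept, 22.0% of lost and 16.9% of gained sites, but the 1 peak list was called over the same insertions, so width is not independent of them. All 15 sites on mitochondrial DNA were gained ones, among 75 mitochondrial peaks. They stood beside 160 and 231 mitochondrial UMIs in K146D, against 222 and 3 in WT.

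Kept sites recurred in other variants. A site in at least 1 of the other 5 variants was found at 37 of 52 kept sites (71.2%), 63 lost sites (28.3%), 69 gained sites (23.4%) and 29.8% of all peaks, and 6 kept sites were a site in all 5. None of the kept sites had 0 UMIs in the other 10 libraries, against 37.2% of lost and 35.6% of gained sites and 22.0% of all peaks. K150A had a site at 31 kept sites (59.6%), against 10.5% of all peaks, and S158H had a site at 37 gained sites (12.5%), near the 11.1% of all peaks at which it had one. Over all its sites, K146D shared 54 with S158H (15.6% of K146D sites and 22.3% of S158H sites) and 53 with K150A (15.3% and 23.1%), close to the 52 it shared with WT (15.0% and 18.9%). It shared 30 with K152L (8.65% and 26.5%) and 20 with A160P (5.76% and 16.3%).

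Lost and gained sites lay about as far from sites of the other genotype as peaks that were a site of neither did. A K146D site lay within 500 bp of 14 lost sites (6.28%), with a median distance of 13550 bp. For peaks that were a site of neither these values were 3.96% and 12246 bp. A WT site lay within 500 bp of 15 gained sites (5.08%), with a median of 15602 bp, against 3.83% and 16130 bp for peaks that were a site of neither.

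Of these near sites, 6 of the 15 gained and 2 of the 14 lost ones were in the window of a listed gene. The others were beside genes such as PHO89, GIC2, GFA1, EXG1, SVS1 and TYE7, or, for 1 gained and 4 lost ones, in no gene window. Upstream of MSB2, a sensor of filamentous growth, a gained site (68 and 78 UMIs in K146D, against 2 and 0 in WT) lay beside a kept one (26 and 41, against 7 and 3), the midpoint of which was inside the coding span of SNU71. At MF(ALPHA)1, which encodes the α-factor pheromone, a gained site (98 and 107, against 3 and 0) lay beside a kept one (19 and 28, against 13 and 6). TEC1 had a gained site with 50 and 37 UMIs in K146D, against 0 and 0 in WT, 333 bp from a kept site with 19 and 20, against 64 and 47. At PRM3 a gained site (10 and 9, against 2 and 0) was 453 bp from a lost one (1 and 3, against 132 and 68). SAG1 had a kept, a lost and a gained site in its window.

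Many kept sites were beside known mating and filamentation genes. Of kept sites, 20 (38.5%) lay in the window of a gene on 1 of 7 lists, against 13 lost (5.83%), 14 gained (4.75%) and 86 of all peaks (3.93%). The lists were chosen with results of these data known, so this is a description and not independent evidence. By windows, 61 of 6002 genes were targets of both genotypes, 215 of WT alone and 246 of K146D alone. For 7 of the 61, among them PRM3 and GIC2, the genotypes used different peaks. Windows with UMIs summed over their peaks gave 228 genes lower (23.2% of 981 tested) and 252 higher (25.7%) in K146D. Calls at the windows of lost and gained targets follow largely from the UMIs that made their sites. Their differences and adjusted p-values, here and below, are therefore a description and not independent evidence.

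Among transcription factors of the pathway, 3 of 7 had a kept site (STE12, TEC1 and KAR4), TEC1 had a gained one as well, and none had a lost one. KAR4, a regulator of nuclear fusion genes that acts with Ste12, had 47 and 52 UMIs in its window in K146D, against 353 and 237 in WT, a log2 difference of −2.50 ± 0.68 (SE; adjusted p = 0.0127). The groups did not overlap, but the call was lost without the first or second K146D library or the second WT library (adjusted p up to 0.0826). TEC1, the partner of Ste12 in filamentation, had 69 and 57 UMIs in K146D, against 66 and 47 in WT (0.20 ± 0.72, adjusted p = 0.954). STE12 itself had 46 and 47 in K146D, against 116 and 41 in WT (−0.53 ± 0.59, adjusted p = 0.556). DIG1 and DIG2 had at most 2 UMIs in any of the 4 libraries, and MCM1 had none.

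Of the 14 pheromone and G protein genes, 2 had a kept, 3 a lost and 2 a gained site. MF(ALPHA)1 had both a kept and a gained one. Of the 8 windows tested on this list, 2 were called lower and 2 higher. Over all 981 windows tested, 48.9% were called in either direction. GPA1, the Gα subunit, was gained, with 24 and 19 UMIs in K146D, against 2 and 0 in WT (4.00 ± 0.99, adjusted p = 0.00774), a call lost without the first K146D or the second WT library (adjusted p up to 0.124 over all alternatives). STE4, the Gβ subunit, was lost, with 2 and 3 UMIs in K146D, against 28 and 16 in WT (−2.70 ± 0.99, adjusted p = 0.05001, just short of a call). AFR1, which acts on the receptor and on projection shape, had 0 and 3 in K146D, against 121 and 75 in WT (−5.70 ± 0.63, adjusted p = 6.16e-05), and ASG7 had 0 and 0, against 29 and 8. SST2, which speeds GTP hydrolysis by Gpa1, kept its site with 33 and 49 UMIs in K146D, against 94 and 37 in WT, and was not called. MF(ALPHA)1 had 117 and 135 in K146D, against 16 and 6 in WT (3.60 ± 0.95, adjusted p = 0.0109), a call lost without either K146D library or the second WT library (adjusted p up to 0.139 over all alternatives).

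In the MAP kinase cascade the 2 kinases that act on Ste12 went opposite ways. FUS3, of mating, was gained, with 149 and 51 UMIs in K146D and 0 in both WT libraries (6.66 ± 0.97, adjusted p = 0.000343). KSS1, which also serves filamentation, was lost, with 1 and 1 in K146D, against 17 and 7 in WT (−2.63 ± 0.86, adjusted p = 0.0305), a call that none of the 4 leave-outs held (adjusted p up to 0.169 over all alternatives). STE20, the kinase at the head of the cascade, was lost with 1 and 1 in K146D, against 113 and 81 in WT (−5.66 ± 0.51, adjusted p = 1.58e-05). MSG5, a phosphatase of Fus3, kept its site, and 6 of the 10 genes had no site.

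Of the 21 genes of agglutination, cell fusion and karyogamy, 7 had a kept, 6 a lost and 3 a gained site. SAG1 and PRM3 had more than 1 kind. Of the 15 windows tested on this list, 7 were called lower and 2 higher, where 48.9% of all 981 windows were called in either direction. FIG1, which takes part in mating and fusion, had 99 and 96 UMIs in K146D, against 58 and 38 in WT (1.07 ± 0.22, adjusted p = 0.00292), a call that edgeR and DESeq2 did not make (adjusted p up to 0.260). AGA1, the anchor of a-agglutinin, had 83 and 52 in K146D, against 15 and 19 in WT (1.93 ± 0.93, adjusted p = 0.134). FUS1, a cell fusion protein, had 39 and 32 in K146D, against 23 and 9 in WT (1.27 ± 0.72, adjusted p = 0.207). KAR5, needed for nuclear fusion, had 72 and 88 in K146D, against 86 and 88 in WT (−0.10 ± 1.10, adjusted p = 1.00).

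Lower windows on this list included PRM3, of nuclear envelope fusion, with 11 and 12 UMIs in K146D, against 134 and 68 in WT (−2.93 ± 0.38, adjusted p = 0.000172). SCW10, a cell wall protein, had 0 and 5 in K146D, against 380 and 215 in WT (−6.98 ± 0.78, adjusted p = 6.41e-05). FUS2 had 16 and 21 in K146D, against 61 and 33 in WT (−1.22 ± 0.31, adjusted p = 0.00836), and SAG1, the α-agglutinin, had 12 and 14, against 73 and 27 (−1.68 ± 0.50, adjusted p = 0.0199). The FUS2 call was lost without the first K146D library (adjusted p up to 0.114 over all alternatives), and that of SAG1 without any 1 of the 4 (up to 0.107). PRM5, a pheromone-regulated membrane protein, was gained with 42 and 56 in K146D, against 18 and 1 in WT (3.17 ± 0.63, adjusted p = 0.00236), but K146D and WT alone and DESeq2 did not call it (adjusted p up to 0.752) and single libraries left out moved it from 1.91 to 4.44.

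Of the 21 filamentation genes and surface sensors matched, 6 had a kept site, 4 had a gained one (MSB2, WSC2, HKR1 and MID2) and 1 had a lost one (PRY2). MSB2, WSC2 and PRY2 had these beside a kept site. Of the 9 windows tested on this list, 2 were called lower and 3 higher, where 48.9% of all 981 windows were called in either direction. MSB2 had 94 and 119 UMIs in its window in K146D, against 9 and 3 in WT, so that every K146D library was above both WT libraries (4.16 ± 0.51, adjusted p = 0.000120). SHO1, its partner in osmosensing and filamentation, had 17 and 9 in K146D, against 13 and 7 in WT (0.38 ± 0.43, adjusted p = 0.562), and the SE leaves the direction unsettled. HKR1, another mucin-like sensor, was gained with 35 and 70 in K146D and 0 in both WT libraries (5.86 ± 0.37, adjusted p = 1.68e-06), as was MID2, a cell wall stress sensor, with 26 and 20, against 2 and 0. MSS11, a transcription factor of FLO11, was lower, with 5 and 7 in K146D, against 35 and 26 in WT (−2.16 ± 0.39, adjusted p = 0.00142). CHS7, needed for chitin synthase export, was lower too, with 31 and 39, against 130 and 77 (−1.47 ± 0.41, adjusted p = 0.0145), a call lost without the first K146D or second WT library (adjusted p up to 0.0838). No peak overlapped the window of FLO11.

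Of 15 cell cycle genes with known Mcm1 control, 1 kept (YOX1) and 2 gained (SWI4 and SWI5) a site. Over all 6002 genes, 61 were targets of both genotypes and 246 of K146D alone. No peak overlapped the window of FAR1. SWI5 had 11 and 10 UMIs in K146D and SWI4 had 5 and 4, against 0 in all WT libraries. None of the windows of 12 osmotic stress genes held any peak, where 1643 of all 6002 gene windows did.

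**Figure D4:**
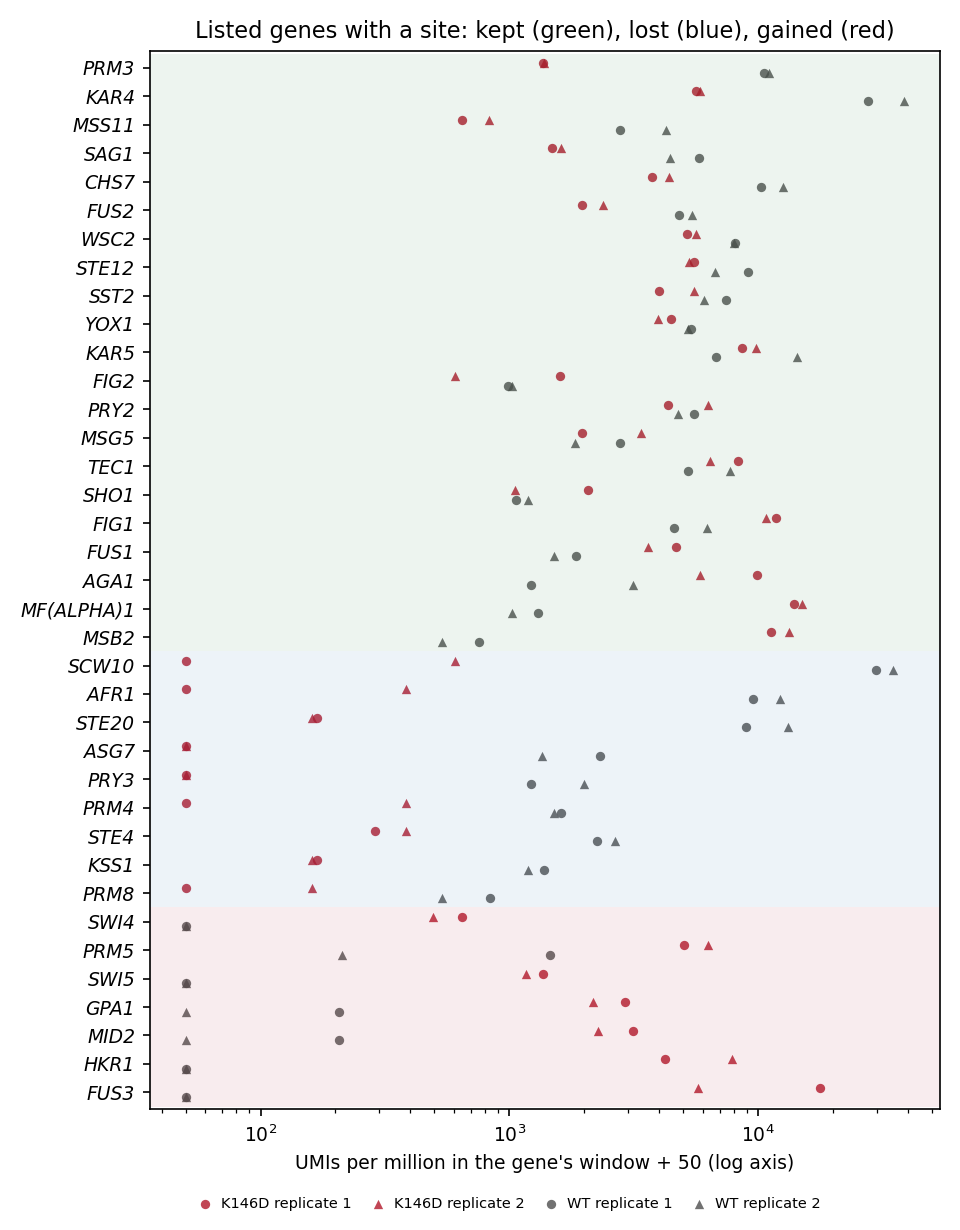
UMIs per 1000000 plus 50 in the window of each listed gene with a site (horizontal log axis), with 1 symbol for each of the 2 K146D (red) and 2 WT (grey) libraries; the genes are sorted by class and by the difference, on a green, blue or red ground for kept, lost and gained. Values of the K146D libraries lie left of WT for KAR4 and right of it for MSB2, while at KAR5, TEC1 and SHO1 they overlap.

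Expression is a readout that the choice of sites did not use. Among 6139 genes tested with edgeR, 42 were lower (0.684%) and 1 higher (0.0163%) in K146D, 0.7% in all, and 236 (3.84%) had an unadjusted p below 0.05. With replicate number as a block 99 were lower (1.61%) and 19 higher (0.309%). Of the 61 targets of both genotypes, 13 were lower and 1, STE12, was higher, with a median log2 difference of −0.11, against 0.00 over all genes. Targets of WT alone had 6 lower of 199 tested and a median of −0.01, and targets of K146D alone had 3 lower of 229 and a median of −0.01. With the block these counts were 19 lower and 1 higher for kept, 13 lower and 2 higher for lost, and 4 lower and 1 higher for gained targets. Of the 42 lower genes, 20 had no site of either genotype in their window, FAR1 (−1.60 ± 0.12, adjusted p = 2.18e-11) among them. Replicates 1 and 2 were deposited as 1 sample and replicates 3 to 5 as another. They are called the first and second experiment here, though the labels do not say that they were separate experiments. All 23 called genes with a site had the same sign in both, and 19 were called in the first alone and 12 in the second alone. Replicates 4 and 5 stood apart from replicates 1 to 3 in some genes. GPD1, of glycerol synthesis, was at 82.4, 96.5 and 95.8 CPM in K146D replicates 1 to 3 and 9.77 and 11.9 in 4 and 5, against 107, 92.1 and 85.3 and then 8.95 and 26.2 in WT. With replicates 1 to 3 of every genotype alone, an alternative chosen after seeing the data, 51 genes were lower and 16 higher. Among targets, 13 kept, 8 lost and 3 gained ones were then lower, and 1, 3 and 2 higher.

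Several genes where K146D kept or gained insertions had less RNA. AGA1 was at 18.9, 17.2, 25.8, 29.8 and 25.6 CPM in K146D, against 253, 240, 322, 339 and 339 CPM in WT (−3.68 ± 0.23, adjusted p = 1.34e-12), with K146D below WT in every library. FUS1 was at 5.69, 4.48, 5.90, 13.3 and 16.5 CPM in K146D, against 49.9, 56.2, 53.8, 77.7 and 64.6 CPM in WT (−2.90 ± 0.41, adjusted p = 2.44e-05), and had −2.53 in the second experiment alone, where it was not called (adjusted p = 0.0771). Both had a kept site whose window did not pass the binding test, with the higher values in K146D. FIG1, where the share of UMIs was called higher, had an expression difference of −3.69 ± 0.44 (adjusted p = 1.23e-06). Also called lower in expression were the kept targets SST2 (−2.77 ± 0.19), TEC1 (−1.38 ± 0.15) and KAR5 (−0.88 ± 0.17). Their windows were not called in binding. The KAR5 expression call was lost in the second experiment alone (adjusted p = 0.856).

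FUS3, a gained target, was at 42.7, 47.7, 52.6, 53.3 and 45.7 CPM in K146D, against 122, 108, 113, 143 and 112 CPM in WT (−1.31 ± 0.14, adjusted p = 1.07e-07). The other gained targets called lower were GPA1 (−1.21 ± 0.11) and PRM5 (−1.33 ± 0.14). Of the gained targets tested, 1.31% were called, against 0.7% of all genes. No gained target was called higher, but only 1 of all 6139 genes was. With the replicate block 1 gained target was higher. MSB2, higher in binding, was at 119, 122, 117, 106 and 103 CPM in K146D, against 190, 159, 172, 184 and 186 CPM in WT (−0.65 ± 0.13, adjusted p = 0.00294), a call that neither experiment gave alone (adjusted p = 0.0809 and 0.0723). The paper found no difference for MSB2 in its own RNA-seq analysis, and by RT-PCR it found higher MSB2 RNA in K146D than in WT. HKR1 and MF(ALPHA)1, also higher in binding, had expression differences of 0.01 ± 0.10 and 0.01 ± 0.13.

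KAR4 was lower in both readouts, with 23.6, 22.7, 29.8, 25.3 and 24.7 CPM in K146D, against 60.1, 64.6, 64.3, 83.3 and 65.1 CPM in WT (−1.42 ± 0.13, adjusted p = 1.09e-08). PRM3, FUS2, SAG1 and SCW10 were lower in both as well, with expression differences of −1.73 ± 0.40, −1.49 ± 0.28, −1.95 ± 0.24 and −0.81 ± 0.14. SAG1 is also one of the MATα markers above. The PRM3 call was lost without K146D replicate 1 or 4 or WT replicate 3, 4 or 5 (adjusted p up to 0.560 over all alternatives). That of FUS2 was lost in the second experiment alone (adjusted p = 0.441). STE20, with 1 UMI in each K146D library at its lost site, had an expression difference of −0.03 ± 0.16 (adjusted p = 1.00).

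The kept targets GIC2, an effector of Cdc42, and RGC1, a regulator of the glycerol channel, were also lower in expression (−0.81 ± 0.14 and −0.81 ± 0.11). GIC2 had 14 and 12 UMIs in its window in K146D, against 84 and 51 in WT, and RGC1 had 11 and 14, against 17 and 7. Among lost targets, CHS3, the catalytic subunit of chitin synthase III, had 0 and 0 UMIs in K146D, against 13 and 6 in WT, and an expression difference of −0.52 ± 0.10 (adjusted p = 0.00293). PPG1, a protein phosphatase gene, had 0 and 0, against 65 and 62, and −0.50 ± 0.09 in expression. ECL1 (1 and 1, against 27 and 12) and YGL194C-A (2 and 6, against 23 and 13) had −0.91 ± 0.12 and −0.90 ± 0.14. NIS1 was a lost target only through the minimum, with 2 and 11 UMIs in K146D, against 11 and 3 in WT, and had −0.91 ± 0.15 in expression.

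STE12 RNA itself was at 410, 396, 457, 300 and 282 CPM in K146D, against 173, 153, 185, 138 and 130 CPM in WT (1.24 ± 0.24, adjusted p = 0.00294), above WT in every library. In the second experiment alone the difference was 1.21 but was not called (adjusted p = 0.781), and in replicates 1 to 3 it was 1.30 and called. This RNA came from the plasmid that carries the variant, since the chromosomal gene was deleted.

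**Figure D5:**
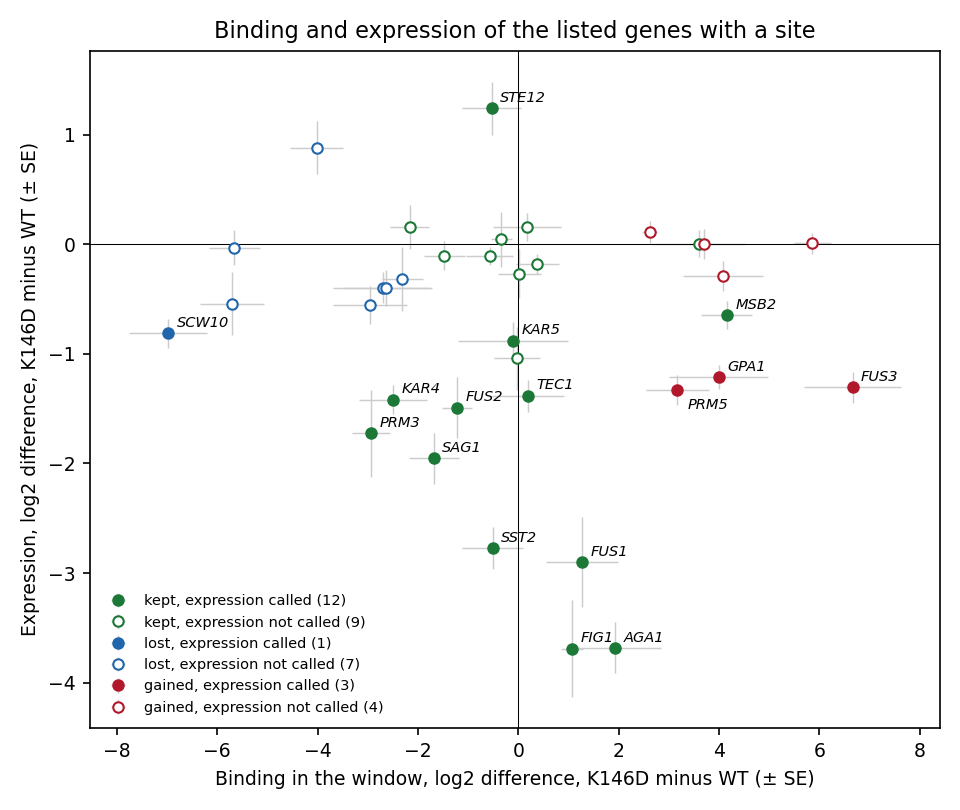
Log2 difference of expression, K146D minus WT (vertical axis), against that of UMIs in the gene's window (horizontal axis), with SE bars, for listed genes with a kept (green), lost (blue) or gained (red) site and values in both tests; filled points are genes called in expression, and only these are named. KAR4, PRM3, SAG1, FUS2 and SCW10 lie low on the left, FUS3, GPA1, PRM5 and MSB2 below 0 on the right, and STE12 alone above 0 among the filled points.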

How the data were processed

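From mapped calling-card reads the authors counted insertions as distinct UMIs, found peaks with MACS2 on R64, and deposited 1 list of 2188 peaks with, per library, the natural log of UMIs per 1000000 plus 1, although its description calls the values counts. Exponentiated, 100% of 30632 values were whole UMIs within 0.001. Whether peaks were called per library is not given in the sources used here. For RNA-seq they deposited raw UMI counts per gene (7124 genes, 35 libraries, replicates 1 and 2 under 1 sample and 3 to 5 under another), 1039390 to 5054173 UMIs in the K146D libraries and 1852831 to 3713381 in the WT ones.

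Peaks, and gene windows with the UMIs of their peaks summed, were fitted with limma 3.58.1 in R 4.3.3 on log2(UMIs per 1000000 + 100) over all 14 libraries, where at least 3 UMIs were found in at least 2 of them. The log2 differences understate changes at few UMIs. Genes were fitted with edgeR 4.0.16 (TMM, filterByExpr, quasi-likelihood) over all 35 libraries, leaving out URA3 as the authors did. Tests were two-sided, with Benjamini-Hochberg adjustment over all features and calls at 0.05. Coding starts came from RefSeq R64, with strand from the letter in the locus tag. The members and lists were chosen with earlier results of these data known.

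Named peaks were the 10 largest falls and rises among called peaks without overlap between the genotypes and the 10 kept sites with most UMIs, and named genes were list members with a site. Genes without a site are named beside a count, and sites near one of the other genotype, kept sites beside DBF2, RAX2, EXG1, BUD8, PCL2 and TGL5 or with no gene window, and called targets outside the lists were named after their values were seen. Floors are 3 UMIs over both libraries, and intervals are exact (95%). Libraries of K146D and WT with the same RNA-seq number deviated together (r from 0.190 to 0.760 in 5 pairs), so the block is given beside the expression counts. For calling cards they did not (r = −0.04). Alternatives were other pseudocounts, minimums, windows, scalings and tools, and single libraries left out. No genome sequence was used, so motifs were not searched.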

Additional observations from a re-analysis of the deposited data

Results flagged for a closer look

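Of 72 groups of 5 RNA-seq libraries checked for one library apart from the rest, 6 were picked out, where chance gives about 1 in 20. In K146D, the highest library of GPA1 was at 78.4 CPM, with the next at 70.8, and that of KAR5 at 21.0 CPM, with the next at 13.3. In WT, the highest library of KAR4 was at 83.3 CPM (next 65.1), that of SAG1 at 1585 CPM (next 1105) and that of PRY2 at 111 CPM (next 70.2), and the lowest of SST2 was at 102 CPM (next 131).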

How the results depend on the processing

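DESeq2 on recovered UMIs, scaled by library totals, called 33 peaks lower and 33 higher and 46 windows lower and 26 higher, but gave no adjusted p for 875 of 1129 peaks and 684 of 981 windows, while edgeR on the same UMIs called 219 and 209 peaks. A minimum of 1 UMI gave 143 sites kept and 516 gained, with 165 and 384 target genes. A minimum of 10 gave 29 kept, 132 lost and 126 gained, with 35, 140 and 133 target genes. With single libraries left out, kept, lost and gained sites ran from 52 to 111, 192 to 448 and 236 to 394, and their target genes from 61 to 105, 176 to 375 and 202 to 315. Peaks called lower ran from 217 to 257 and higher from 258 to 332, windows from 206 to 240 and 222 to 270, and genes from 35 to 43 lower and 1 to 2 higher. Expression calls were 99 lower and 19 higher with the replicate block. The second experiment alone gave 19 lower and 0 higher, the first alone 16 higher, replicates 1 to 3 (added after seeing the data) 51 lower and 16 higher, and DESeq2 5 higher. In calling cards the block gave 235 lower and 293 higher peaks and 230 and 251 windows and changed 1 of 37 window calls (STE4), and the numbers did not pair the libraries. Of the window calls named, DESeq2 also did not make those of FUS3, HKR1, GPA1, PRM5, MSS11, FUS2, FIG1 and PRM4, a pseudocount of 10 those of KSS1, MSS11, PRM4 and MF(ALPHA)1, TMM those of KSS1, CHS7 and SAG1, and K146D and WT alone that of PRM5. Of the sites, DESeq2 did not call those of RGI1, AGP3, LRG1, YAP1, MET28, YHI9 and FIG1, and a pseudocount of 10 those of PUN1 and KAR4. Calls absent from the main result were those of the AGA1 window (pseudocount of 1000, edgeR, DESeq2), the FUS1 window (pseudocount of 1000, K146D and WT alone, DESeq2), the STE4 window (those 3, edgeR and the block), the YOX1 window and SST2 site (pseudocount of 1000), the UBC4 site (K146D and WT alone, DESeq2) and the WSC2 site (pseudocount of 1000, K146D and WT alone, DESeq2). Differences that changed sign were not called. These were windows of FIG2 (0.0254 with a pseudocount of 1000 and 0.0657 with TMM), KAR5 (0.0207 with TMM), PRY2 (−0.15 in edgeR) and MSG5 (−0.0448 in edgeR). With single libraries left out, the KAR5 site ran from −0.69 to 0.43, and the windows of TEC1 from −0.0784 to 0.47, FIG2 from −0.69 to 0.64, SHO1 from −0.0946 to 0.85, PRY2 from −0.24 to 0.29, KAR5 from −0.63 to 0.44 and MSG5 from −0.21 to 0.57. The median difference over peaks was 0.00, but 0.54 without WT replicate 1 and 1.05 over the 621 peaks tested with K146D and WT alone. The cause of these shifts was not tested. Motif shares and their alternatives were not run, as no genome sequence was used. Depth limits the weak sites, since 1 UMI was worth 111 to 119 per 1000000 in K146D and 78.3 to 162 in WT.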
